A study of Mus musculus with 6 samples.

Results

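The cytosolic ribosome is built from ribosomal RNA and the ribosomal proteins described here. Genes were taken by name: Rpl or Rps followed by a digit, together with Rplp0, Rplp1, Rplp2 and Rpsa, and without the kinase genes whose names start with Rps6k. This gave 91 of the 23366 genes in the count table. By role, 31 encode proteins of the small (40S) subunit and 46 proteins of the large (60S) subunit, 8 are paralogs of a subunit gene, 5 are named pseudogenes, and 1 (Rps19bp1, a binding partner of Rps19) is no subunit.

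The study measured total RNA of effector CD4+ T cells of the FVB/N mouse strain by RNA-seq in 6 libraries. They had been transferred into Rag-deficient hosts, which lack lymphocytes with rearranged receptors but keep innate and stromal cells. After 6 weeks the cells were recovered by sorting from mesenteric lymph nodes. Sorting used rhodamine 123 (Rh123), a dye that the efflux pump Mdr1 carries out of cells, and gave Mdr1+ cells with low dye and Mdr1- cells with high dye, with 3 replicates each. Age, sex and the number of hosts behind a library are not stated in the sources used here, so the p-values below measure the spread between these libraries, which may be in part technical. The fractions differ in measured efflux, not in an engineered allele of the transporter.

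Ribosomal proteins are made in near equal numbers, since a ribosome holds a single copy of nearly all of them, and their mRNAs are among the most abundant in a growing cell. Many of these mRNAs start with a run of pyrimidines, the terminal oligopyrimidine (TOP) element, through which mTOR signalling and the RNA-binding protein Larp1 regulate their translation. In T cells, ribosome production goes up on activation together with growth and division. Mammalian genomes also hold many processed pseudogenes copied from ribosomal protein mRNAs, so a short read from one of these mRNAs often matches several places in the genome.

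That last point bears on every value below, and a pair of sequences shows it. Both are coding bases 124 to 173 (counted from the A of the start codon, sense strand, GENCODE M21 transcripts on GRCm38), 50 bases each, which is an assumed read length since the real one is not given in the sources used here. In Rpl10 this stretch was found without a mismatch, counting either strand, at 10 other loci that have a transcript of any type in the annotation. It was picked as the stretch of the gene with the most such matches. In Rps3 the stretch at the same position was found at 0 other loci.
Rpl10: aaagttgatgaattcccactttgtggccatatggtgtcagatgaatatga
Rps3: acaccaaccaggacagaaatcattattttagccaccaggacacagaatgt

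Across whole transcripts, the 82 ribosomal protein genes with enough counts to be tested shared a median of 51.9% of their 50-base stretches with another locus, against 0% for the 10202 other tested genes with a transcript. At least 25% was shared in 69 of the 82 (84.1%) and in 3.63% of the other genes. Rps27 stood at 98.7%, Rpl10 at 92.1%, Rps6 at 84.6% and Rpl7a at 81.2%, whereas Rps3 stood at 2.96% and Rpl8 at 7.86%. In the 4 libraries whose tables list it, 67.0 to 73.2% of the tallied alignments were set aside as not unique before gene counts were made. Gene counts were made without these alignments, so levels of different members cannot be read as relative mRNA amounts.

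The surroundings of the start sites were searched for a pyrimidine run like that of the TOP element. The search did not ask that the run open the mRNA, so a gene with a hit can lack the element. A gene without a hit can still have it, since runs under 8 bases were not counted. Of the 82 tested genes, 61 had a promoter in the RefSeq table (GRCm38.p6). A run of at least 8 bases of C or T within 20 bases on either side of an annotated start, on the gene's own strand, was found in 30 of these 61 genes (49.2%), in 19% of the tested genes with a promoter and in 18.4% of all genes in the table. The 30 bases around the start are shown for a gene with a long run (Rpl13a, chr7:45128731-45128760, minus strand), for the S6 kinase substrate Rps6 (chr4:86857353-86857382, minus strand) and for Rps3, the member with the highest mean CPM, whose window holds no long run (chr7:99483695-99483724, minus strand). Capitals mark the longest run of C and T in the window.
Rpl13a: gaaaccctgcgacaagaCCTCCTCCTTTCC
Rps6: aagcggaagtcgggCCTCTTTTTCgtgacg
Rps3: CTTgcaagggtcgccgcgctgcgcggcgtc

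Gene counts per library ran from 2220691 (Mdr1+ replicate 3) to 20771456 (Mdr1+ replicate 2), so that 3 counts, the limit that a count of 0 allows, stand for 0.144 to 1.35 CPM by library total. CPM values elsewhere are scaled by TMM factors as well. The values of both replicate 3 libraries were listed in another gene order than the names beside them and were re-assigned before use. Their rank correlations with the other 4 libraries were 0.424 to 0.460 in the deposited order and 0.926 to 0.962 after this step. The cells carried T cell markers (10 genes, 4717 to 5423 CPM summed in the Mdr1- and 4790 to 6033 in the Mdr1+ libraries), with Cd4 at 1023 to 1124 and 1095 to 1114 CPM. Abcb1a, which encodes Mdr1, stood at 42.0 to 73.4 CPM in the Mdr1- and 132 to 178 CPM in the Mdr1+ libraries. Myeloid markers (14 genes) summed to 68.0 to 184 CPM against 33.0 to 69.3 CPM, B cell markers (7 genes) to 6.59 to 11.1 against 11.1 to 22.8 CPM, and stromal markers (8 genes, Pdgfra at 0) to 125 to 136 against 117 to 191 CPM. The stromal sum hides genes that differ: of 3 tested, 1 was called lower in Mdr1+ cells and the median log2 fold change was -2.51. Epithelial markers (5 genes, Krt8 and Krt19 at 0) summed to 7.48 to 9.51 against 13.6 to 22.2 CPM, and CD8 and erythroid markers to at most 2.21 CPM. Proliferation genes (20) summed to 3540 to 4913 CPM in the Mdr1- and 1064 to 1284 CPM in the Mdr1+ libraries. All 20 had estimates below 0, and edgeR without the replicate block called 18 lower, where 1.95% of all tested genes were called lower. The part that the marker differences, the proliferation difference or the depth play in the results below was not tested.

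Of the 91 genes, 4 had no count in any library (Rpl10l, Rpl3l, Rpl31-ps12 and Rpl34-ps1), and 5 more had too few counts to be tested. Of these, the subunit gene Rpl26 had 1 count in Mdr1+ replicate 2 and 0 in the other libraries. The other 4, Rpl39l, Rps4y2, Rps15a-ps4 and Rps19-ps3, are paralogs and pseudogenes with at most 9 counts in a library. The 82 tested genes were all 31 small subunit genes, 45 large subunit genes, 4 paralogs, the pseudogene Rps15a-ps6 and Rps19bp1.

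Mean levels of the 82 genes over the 6 libraries ran from 1.31 to 1073 CPM. Their median of 19.0 CPM lay below the 33.4 CPM median of all 10897 tested genes. A small number of genes supplied most of the counts: 6 of the 82 had a mean above 500 CPM, 12 lay between 50 and 500 CPM, 42 between 10 and 50 CPM and 22 below 10 CPM. Among the 6 were Rps3 and Rps9, at the mRNA entry site of the small subunit, Rpl8 and Rpl4 of the large subunit, and Rpl13a, a large subunit surface protein also known for a role in translational silencing. Together these 6 held 64.7 to 68.9% of the counts of all 91 genes in each library. Per kilobase of transcript, Rpl8 (1198 CPM per kb) stood above Rps9 (680.5), Rpl4 (594.4), Rpl13a (573.4) and Rps3 (562.5), and Rpl10 stood at 38.1 and Rps6 at 17.3 CPM per kb. These values use the whole length of the transcript chosen for each gene, shared sequence included, and their order depends on that choice. The Rps3 transcript has 1908 bases, 729 of them coding, against 851 bases for Rpl8 and 751 for Rps9. Only 59 of the 50-base stretches of Rpl10 and 128 of Rps6 were found at no other locus, against 1804 of Rps3. The level fell with the share of sequence found elsewhere (Spearman rank correlation -0.40 over the 82 genes, a description across genes that share their libraries).

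All 91 genes together took 0.756, 0.929 and 0.550% of gene counts in Mdr1- replicates 1, 2 and 3, and 0.778, 1.00 and 0.571% in Mdr1+ replicates 1, 2 and 3. The fractions overlapped, and the order followed the replicate number: replicate 2 was highest and replicate 3 lowest in both. The mean share was 0.745% ± 0.190 (SD, n = 3) in Mdr1- cells and 0.784% ± 0.215 (SD, n = 3) in Mdr1+ cells, a difference within the spread between replicates (two-sided exact permutation test, p = 0.7, where 3 against 3 cannot go below 0.1). Within a replicate number the Mdr1+ library was higher each time, by 2.90, 7.85 and 3.91% of the Mdr1- share. Counting error was small beside the spread between replicates, but not beside the difference in pair 3. The 95% Wilson interval of the least deep library, Mdr1+ replicate 3, ran from 0.561 to 0.581%, and that of Mdr1- replicate 3 from 0.544 to 0.556%. Such intervals cover counting error only.

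**Figure D1:**
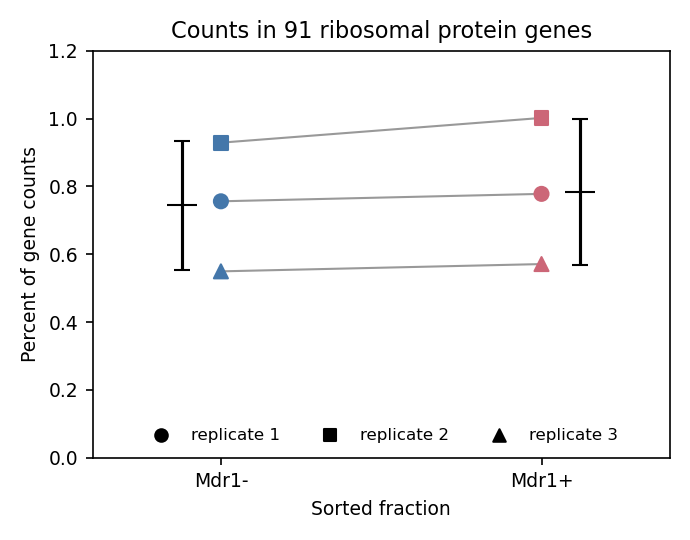
Percent of all gene counts (vertical axis) that fell in the 91 ribosomal protein genes in each sorted fraction (horizontal axis). Symbols are libraries by replicate number, grey lines join the same number, and black bars are the mean ± SD of 3 libraries: the means of 0.745 and 0.784% lie well within the spread between replicate numbers.

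Split by level, the pair-wise differences were smallest for the genes that supply most counts. The share of gene counts in the 6 genes with the highest mean CPM was 0.507% ± 0.137 (SD, n = 3) in Mdr1- and 0.525% ± 0.155 (SD, n = 3) in Mdr1+ cells. Mdr1+ over Mdr1- ratios within replicates 1, 2 and 3 were 1.02, 1.06 and 1.00. All other members together took 0.238% ± 0.0535 and 0.259% ± 0.0605 (SD, n = 3 each), with ratios of 1.05, 1.12 and 1.11. This split was made after the values were seen.

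No ribosomal protein gene passed the test of Mdr1+ against Mdr1- cells (edgeR's quasi-likelihood test, Benjamini-Hochberg adjusted over all 10897 genes, threshold 0.05), where 0.275% of all tested genes were called higher and 1.95% lower. DESeq2 called 0 as well. At an unadjusted p under 0.05 in edgeR, 8 of the 82 were higher and 1 lower, beside 4.63% and 7.22% of all tested genes. The estimates nonetheless lay mostly on one side: 73 of the 82 were above 0 (89.0%, against 54.2% of all tested genes), and the median log2 fold change was 0.29 against 0.04. In 13 of the 82 genes every Mdr1+ library lay above every Mdr1- library, and in 1 every one lay below (8.71% and 11% of all tested genes). Within each replicate number, 40 of the 82 were higher in Mdr1+ in all 3 pairs and 2 lower in all 3 (28.2% and 24.6% of all tested genes). The median log2 ratio in pairs 1, 2 and 3 was 0.16, 0.33 and 0.17, against -0.004, 0.09 and -0.02 over all tested genes. In bulk samples, fewer cells of a type and less RNA per cell cannot be told apart.

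Libraries with the same replicate number deviated together from their group means, and with the number as a block 2 genes rose, Rpl10 and Rps24, and 1 fell, Rps27l, where 5.81% of all tested genes were called higher and 6.57% lower. This count depended on which replicates entered. Without replicate 3, the blocked fit called 13 of the genes higher, among 10.1% of all tested genes, and Rps27l lower, among 12.1%. Those 13 were Rps6, Rps13, Rps15a, Rps23, Rps24, Rps27a, Rpl3, Rpl10, Rpl10a, Rpl11, Rpl17, Rpl21 and Rpl36, with log2 fold changes of 0.40 (Rps15a) to 0.85 (Rps23). Without replicate 1 the blocked fit called Rps27l alone, and without replicate 2 it called 0 of the genes.

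**Figure D2:**
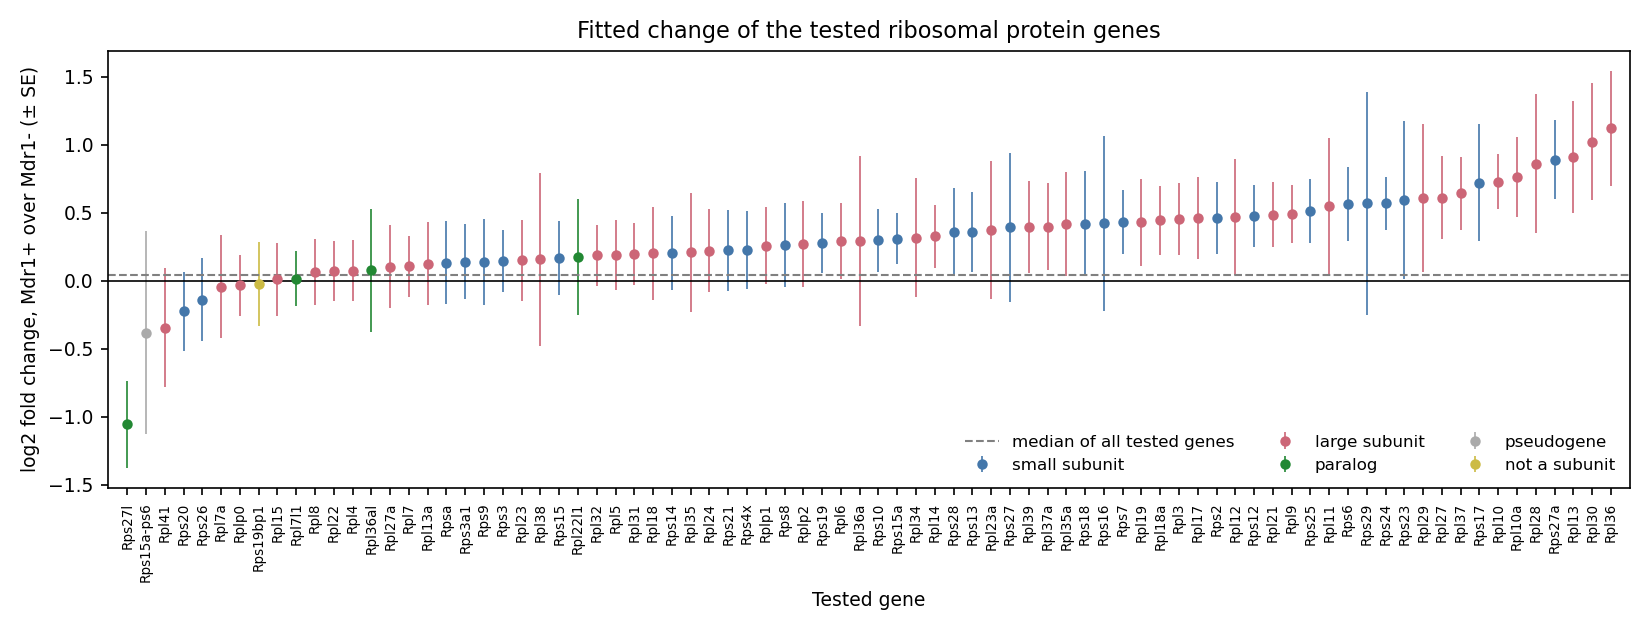
Fitted log2 fold change of Mdr1+ over Mdr1- cells (vertical axis, bars ± SE, 3 libraries a group) for 80 of the 82 tested genes ordered by value (horizontal axis) and coloured by role. Most points lie above the dashed median of all tested genes (0.04), Rps27l lies lowest at -1.06, and small and large subunit genes are mixed along the order.

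The subunits did not separate. The median log2 fold change was 0.31 for small subunit genes, with 28 of 31 above 0, and 0.32 for large subunit genes, with 42 of 45 above 0. The fit with the replicate block gave medians of 0.32 for both. By pair, the medians were 0.14, 0.37 and 0.12 for the small and 0.20, 0.38 and 0.21 for the large subunit. Genes with a pyrimidine run near an annotated start had a median of 0.29 (27 of 30 above 0) and those with none 0.29 (28 of 31 above 0). This split does not separate TOP mRNAs from others, since the search did not ask that the run open the mRNA.

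Rpl10 is a large subunit protein whose joining is among the last steps of 60S maturation. It was measured at 23.6, 20.3 and 24.6 CPM in Mdr1- replicates 1, 2 and 3 and at 37.2, 34.4 and 42.4 CPM in Mdr1+ replicates 1, 2 and 3. Every Mdr1+ library exceeded every Mdr1- library, and the pair-wise log2 ratios were close to each other at 0.65, 0.74 and 0.77. The log2 fold change was 0.73 ± 0.20 (SE), with an edgeR adjusted p of 0.144 without the block and 0.017 with it (0.129 and 0.134 with the block but without replicate 1 or 2). The counts behind it (90 in Mdr1+ replicate 3 to 735 in Mdr1+ replicate 2) come from a transcript with 59 stretches of 50 bases that were found at no other locus, and the part of the shared sequence in this difference was not tested.

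Rps24, a small subunit protein whose human counterpart is mutated in Diamond-Blackfan anaemia, stood at 48.6, 48.8 and 34.0 CPM in Mdr1- and 66.8, 64.4 and 64.1 CPM in Mdr1+ replicates 1, 2 and 3. The Mdr1+ libraries lay close together (65.1 ± 1.48 CPM, SD, n = 3) and all above the Mdr1- libraries (43.8 ± 8.49 CPM, SD, n = 3). The log2 fold change was 0.57 ± 0.19 (SE), with an edgeR adjusted p of 0.256 without and 0.035 with the block. In contrast to Rpl10, 19.1% of the Rps24 transcript used is shared with another locus. This share depends on the transcript chosen, here of 1613 bases, against 799 bases for Rpl10. The edgeR adjusted p of Rps24 with the block was 0.115 without replicate 1 and 0.063 without replicate 2.

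Rps27l is a paralog of the small subunit gene Rps27 and a known target of p53. It was measured at 23.7, 27.9 and 21.4 CPM in Mdr1- and 14.8, 12.9 and 6.13 CPM in Mdr1+ replicates 1, 2 and 3, the last from 13 counts. All Mdr1+ libraries lay below all Mdr1- libraries, and the pair-wise log2 ratios were -0.66, -1.09 and -1.72. The log2 fold change was -1.06 ± 0.32 (SE), with an edgeR adjusted p of 0.188 without the block. With the block it was -1.10 ± 0.24 (SE), adjusted p = 0.020, and 0.091 without replicate 2. Rps27 itself was at 9.60, 17.99 and 4.75 CPM in Mdr1- and 9.14, 24.1 and 8.02 CPM in Mdr1+ replicates 1, 2 and 3, with overlapping groups and a log2 fold change of 0.39 ± 0.55 (SE, edgeR adjusted p = 0.841). The coding sequences, both 252 bases, are printed because reads of the pair must tell them from each other: capitals mark the 60 positions where they differ (76.2% identical), and the longest identical run is 11 bases. Both run from the start codon on the sense strand without the stop codon (GENCODE M21, GRCm38).
Rps27: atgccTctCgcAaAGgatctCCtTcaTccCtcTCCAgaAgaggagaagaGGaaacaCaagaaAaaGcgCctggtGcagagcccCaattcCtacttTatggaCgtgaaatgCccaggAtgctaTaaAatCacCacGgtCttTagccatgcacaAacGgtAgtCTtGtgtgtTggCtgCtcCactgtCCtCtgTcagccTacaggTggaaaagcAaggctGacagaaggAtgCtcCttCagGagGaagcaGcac
Rps27l: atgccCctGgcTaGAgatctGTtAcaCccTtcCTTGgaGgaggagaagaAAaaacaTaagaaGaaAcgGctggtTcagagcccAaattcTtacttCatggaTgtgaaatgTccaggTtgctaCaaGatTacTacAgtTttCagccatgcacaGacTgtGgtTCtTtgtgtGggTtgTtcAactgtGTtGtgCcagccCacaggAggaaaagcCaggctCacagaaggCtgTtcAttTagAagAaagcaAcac

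The log2 ratio of Rps27l to Rps27 was 1.36 ± 0.76 (SD, n = 3) in Mdr1- and -0.20 ± 0.81 (SD, n = 3) in Mdr1+ cells. Within pairs 1, 2 and 3 the Mdr1+ ratio was lower by -0.61, -1.54 and -2.52 on the log2 scale. The groups overlapped (0.63 in Mdr1- replicate 2, 0.69 in Mdr1+ replicate 1), and the difference of -1.56 had p = 0.2 in a two-sided exact permutation test (0.4 adjusted over the 4 paralog pairs). Of the Rps27 transcript 98.7% is shared with other loci, against 22.4% of Rps27l, and the part of this in the ratio was not tested.

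The 3 other paralog pairs showed smaller differences. Rpl22l1 is the paralog of Rpl22, a large subunit protein needed for the development of alpha-beta T cells. It stood at 14.2, 9.60 and 9.68 CPM in Mdr1- and 20.6, 10.2 and 6.13 CPM in Mdr1+ replicates 1, 2 and 3, with no common direction. Rpl22 was at 128, 132 and 96.3 against 147, 136 and 89.6 CPM. The log2 ratio of Rpl22l1 to Rpl22 was -3.42 ± 0.32 and -3.46 ± 0.55 (SD, n = 3 each, exact permutation p = 0.9, 0.9 adjusted). That of Rpl7l1 to Rpl7 was 0.50 ± 0.38 and 0.40 ± 0.48 (SD, n = 3 each, exact permutation p = 0.7, 0.9 adjusted). Rpl36al over Rpl36a gave 1.60 ± 0.38 and 1.29 ± 0.26 (SD, n = 3 each, exact permutation p = 0.2, 0.4 adjusted).

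**Figure D3:**
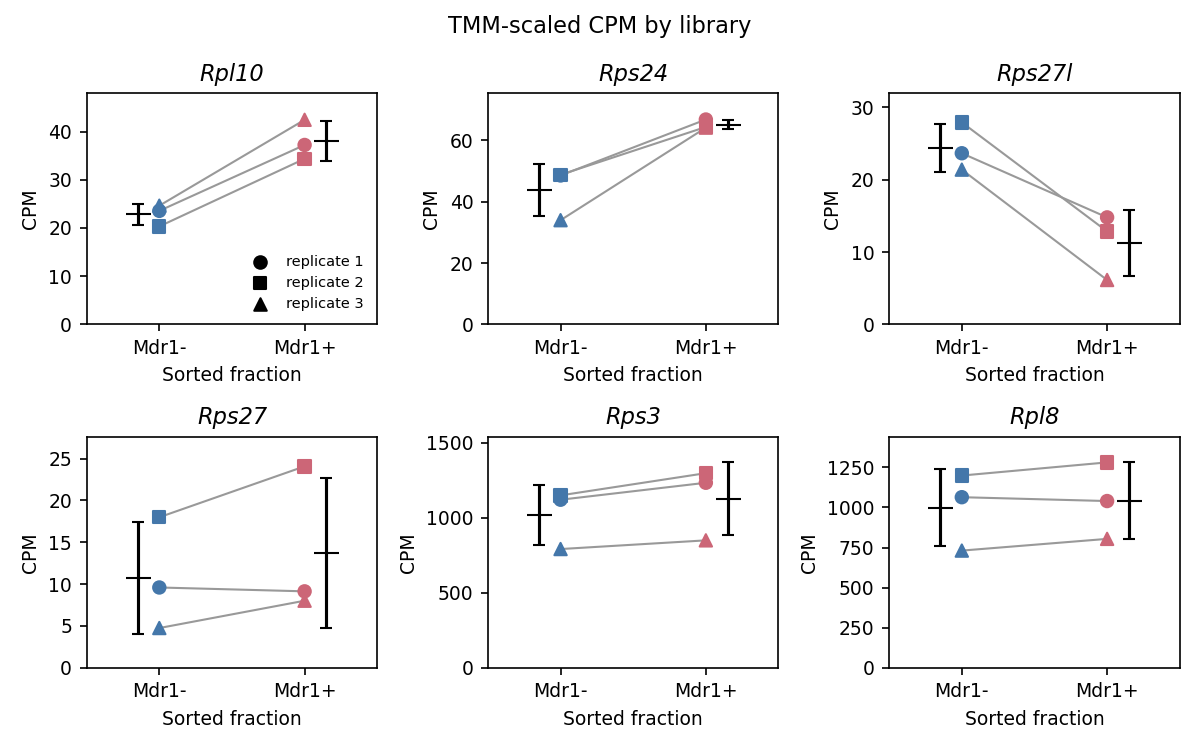
CPM after TMM scaling (vertical axes, each from 0) in the Mdr1- and Mdr1+ libraries for 6 genes, with symbols for the replicate number, grey lines joining the same number and black bars for the mean ± SD of 3 libraries. Rpl10 and Rps24 are higher and Rps27l lower in every Mdr1+ library, whereas Rps27, Rps3 and Rpl8 follow the replicate number.

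The members with the highest mean CPM lay near 0. Rps3 was at 1120, 1149 and 791.4 CPM in Mdr1- and 1233, 1297 and 849.3 CPM in Mdr1+ replicates 1, 2 and 3 (log2 fold change 0.14 ± 0.23, SE). Rpl8 was at 1064, 1199 and 731.0 against 1040, 1281 and 804.1 CPM (0.06 ± 0.24). In both genes replicate 3 was the lowest of its group each time, and the fractions overlapped. Also near 0 were Rpl4 at 0.07 ± 0.22, Rpl13a at 0.13 ± 0.31 and Rps9 at 0.14 ± 0.32 (SE), and edgeR's adjusted p was above the threshold for each.

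The largest positive estimates belonged to genes of low level. Rpl36 was at 4.80, 7.44 and 3.91 CPM in Mdr1- and 6.98, 12.8 and 16.5 CPM in Mdr1+ replicates 1, 2 and 3, a log2 fold change of 1.12 ± 0.42 (SE, edgeR adjusted p = 0.314). Rpl30 was at 5.13, 4.58 and 2.38 against 5.98, 8.88 and 10.4 CPM (1.02 ± 0.43, adjusted p = 0.385), and Rpl13 at 6.36, 5.28 and 3.91 against 6.65, 8.69 and 15.1 CPM (0.91 ± 0.41, adjusted p = 0.438). For these large subunit genes the Mdr1+ replicate 3 library, with 35, 22 and 32 counts, gave the highest value, and pair 3 the largest ratio (1.95, 1.92 and 1.82 on the log2 scale, against 0.50, 0.20 and 0.06 in pair 1). Rpl28, also of the large subunit, went the same way at 3.13, 5.10 and 1.87 against 4.32, 5.70 and 9.43 CPM (0.86 ± 0.51, adjusted p = 0.582).

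Rps27a, made as a fusion of ubiquitin and a small subunit protein, was at 11.2, 8.82 and 7.98 CPM in Mdr1- and 14.95, 16.0 and 21.7 CPM in Mdr1+ replicates 1, 2 and 3. Its groups did not overlap, and the log2 fold change was 0.89 ± 0.29 (SE), with an edgeR adjusted p of 0.234 (0.068 with the block). Rpl10a, the protein of the L1 stalk, was at 11.6, 14.96 and 10.9 against 14.95, 23.7 and 25.5 CPM, with values that just overlap (0.76 ± 0.29, adjusted p = 0.331, and 0.078 with the block).

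Among signalling and disease-linked subunit genes, Rps6, the substrate of the S6 kinases, was at 13.7, 10.3 and 13.1 CPM in Mdr1- and 20.9, 18.6 and 14.6 CPM in Mdr1+ replicates 1, 2 and 3. The groups did not overlap, and the log2 fold change was 0.56 ± 0.27 (SE, edgeR adjusted p = 0.465). Rpl5 and Rpl11 form, with 5S rRNA, the complex that binds Mdm2 when ribosome assembly fails. Rpl5 was at 22.9, 16.9 and 23.9 against 26.6, 18.9 and 27.8 CPM, higher in all 3 pairs by a small amount (0.19 ± 0.26). Rpl11 was at 4.80, 4.84 and 4.42 against 8.64, 8.79 and 1.89 CPM (0.55 ± 0.50), where the low value of Mdr1+ replicate 3 rests on 4 counts. Rps19, the gene first linked to Diamond-Blackfan anaemia, was at 29.0, 38.8 and 32.1 against 31.9, 44.3 and 45.7 CPM (0.28 ± 0.22), and Rps26, another of that disease's genes, at 21.7, 28.6 and 18 against 22.4, 25.4 and 12.7 CPM (-0.14 ± 0.30). None of these 5 was called with or without the block over all libraries.

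The stalk that recruits elongation factors to the large subunit is made of Rplp0 and dimers of Rplp1 and Rplp2. Rplp0 was at 92.5, 102 and 61.6 CPM in Mdr1- and 86.2, 94.8 and 67.4 CPM in Mdr1+ replicates 1, 2 and 3 (log2 fold change -0.04 ± 0.23, SE). Rplp1 was at 102, 136 and 70.5 against 97.7, 166 and 102 CPM (0.26 ± 0.28), and Rplp2 at 21.2, 24.0 and 12.1 against 20.4, 29.6 and 18.4 CPM (0.27 ± 0.32). In pair 1 all 3 stalk genes were lower in the Mdr1+ library, and in pair 3 all 3 were higher. Rpsa, a small subunit protein also described as a laminin receptor, ranged from 21.9 to 31.6 and from 17.5 to 38.6 CPM (0.13 ± 0.30). The X-linked Rps4x ranged from 16.6 to 24.6 and from 16.5 to 30.9 CPM (0.23 ± 0.29).

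Of the 76 subunit genes, 6 had an estimate below 0. Rpl41, the shortest of the ribosomal proteins, was at 25.8, 29.8 and 22.1 CPM in Mdr1- and 24.9, 27.7 and 5.66 CPM in Mdr1+ replicates 1, 2 and 3 (-0.34 ± 0.44, SE), and the last value, from 12 counts, carried the estimate: it was 0.0063 without that library. Rps20 (-0.23 ± 0.29, SE) and Rpl7a (-0.04 ± 0.38) each had pairs in both directions. Neither passed edgeR's test.

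Across the 82 genes, the estimate from the fit over all 6 libraries was larger where more sequence was found at other loci. In the 13 genes with under 25% shared, the median log2 fold change was 0.07 (10 above 0). It was 0.22 in the 26 genes with 25 to 50% (22 above 0), 0.29 in the 23 genes with 50 to 75% (22 above 0) and 0.46 in the 20 genes with over 75% (19 above 0). The other tested genes showed no such gradient, with medians of 0.04, 0.03, 0.10 and -0.02 in the same classes (9832, 225, 106 and 39 genes). The Spearman rank correlation of share and log2 fold change was 0.46 over the 82 genes and -0.01 over the other tested genes. Within pairs 1, 2 and 3 it was 0.28, 0.48 and 0.20, and over the 76 subunit genes 0.43. The class medians did not rise at each step within every pair: in the order of the classes they were 0.05, 0.15, 0.25 and 0.25 in pair 1, 0.14, 0.22, 0.38 and 0.64 in pair 2, and 0.10, 0.15, 0.02 and 0.38 in pair 3. These are descriptions across genes of the same 6 libraries, and the classes were chosen after the values were seen. The class of a gene also depends on the transcript chosen: Rps15a (6.14% shared) and Rps20 (7.58%) had transcripts of 5130 and 3706 bases. The class under 25% includes the paralogs Rps27l and Rpl7l1 and Rps19bp1, which is no subunit.

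The estimate also went with the level, which itself falls with the shared share. The median log2 fold change was 0.42 for members below 3 on the log2 CPM scale (17 genes), 0.39 from 3 to 4 (17 genes), 0.29 from 4 to 5 (24 genes), 0.22 from 5 to 6 (8 genes) and 0.14 above 6 (16 genes). Other tested genes in the same level classes had medians of -0.06, -0.02, 0.0018, 0.04 and 0.09, an order in the other direction. The Spearman rank correlation of level and log2 fold change was -0.45 over the 82 genes and 0.12 over the others. Within the lower and upper 41 genes by level, the correlation of shared share and log2 fold change was 0.18 and 0.39. Whether the shared sequence or the level plays a part in the differences between fractions was not tested. Non-unique alignments made up 67.0% (Mdr1-) and 67.4% (Mdr1+) in replicate 1, and 73.2% and 71.3% in replicate 2.

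**Figure D4:**
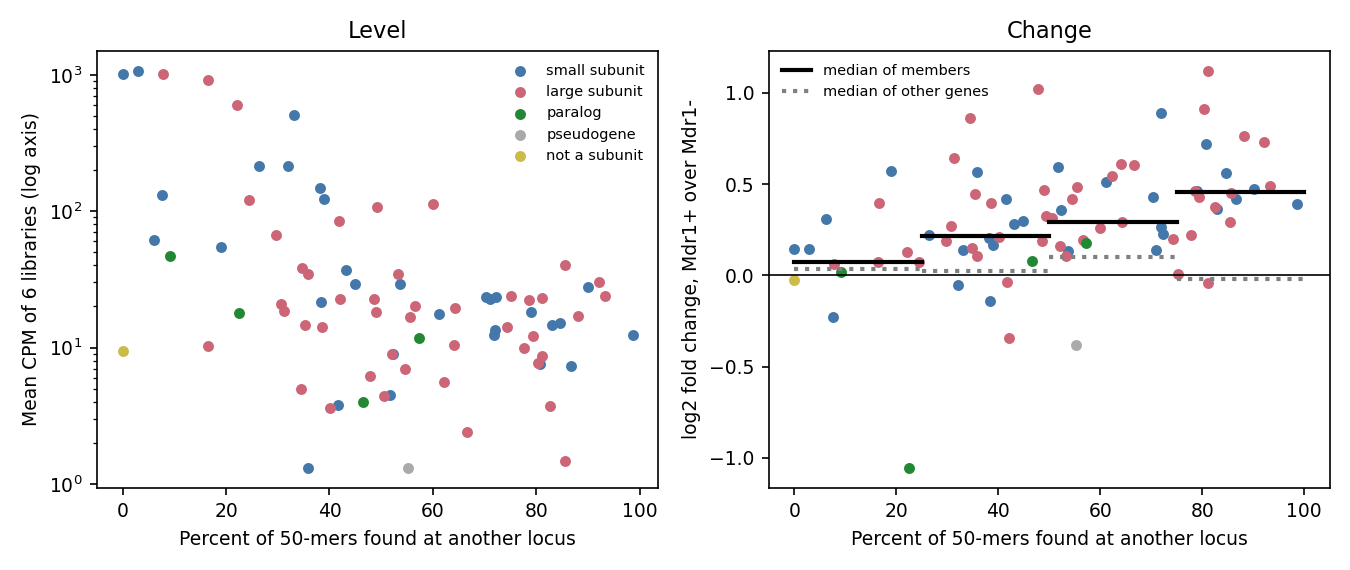
Mean CPM of the 6 libraries on a log axis (left) and log2 fold change of Mdr1+ over Mdr1- cells (right) against the percent of a transcript's 50-base stretches found at another locus, 1 point per tested gene, coloured by role. Black lines are medians of the ribosomal protein genes in each class (0.07, 0.22, 0.29 and 0.46) and dotted grey lines those of all other tested genes (0.04, 0.03, 0.10 and -0.02).

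Differences between replicate numbers were set beside those between fractions. Averaged over both fractions, the 82 genes had a median range between replicate numbers of 0.61 on the log2 scale, against a median size of the group difference of 0.28. The range exceeded the group difference in 61 of the 82 genes, as in 75.5% of all tested genes. The range spans more means, each over fewer libraries, than the group difference. Such a range tends to be larger even where replicate numbers do not matter, so the comparison does not show which differs more. Replicate 2 was the highest in 49 of the 82 and replicate 3 the lowest in 62, where 40.02% and 34.1% of all tested genes had these orders.

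Genes around the ribosome were read from the same fit. Of the ribosomal proteins that the name rule leaves out, 3 were tested, with log2 fold changes from -0.02 to 0.36, and none was called. Fau (15.4 ± 1.60 and 15.2 ± 2.96 CPM, SD, n = 3, Mdr1- first) and Gnb2l1, also called Rack1 (1957 ± 399.4 and 1922 ± 429.0 CPM), had values of 0.00096 and -0.02 on that scale. Of all tested genes, 1.95% were called lower without the block and 6.57% with it. Of 15 elongation factors and other genes with TOP mRNAs, 1 was called lower in both fits, and the median was -0.07. That gene was Vim, the intermediate filament protein vimentin (1643 ± 221.7 against 789.1 ± 54.2 CPM, SD, n = 3, log2 fold change -1.06, edgeR adjusted p = 0.018). The elongation factors Eef1a1 (0.21 ± 0.25, SE) and Eef2 (-0.11 ± 0.21) and the nucleolar chaperone Npm1 (0.28 ± 0.29) were not called.

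Of 63 tested ribosome biogenesis genes, 49 lay above 0 (54.2% of all tested genes did) with a median log2 fold change of 0.18, and 0 were called by edgeR without the block. At an unadjusted p under 0.05, 2 were higher, beside 4.63% of all tested genes. With the block 3 of the 63 rose, a share no larger than the 5.81% of all tested genes called higher in that fit. They were Tsr2, a chaperone of Rps26 (22.2 ± 5.96 to 36.8 ± 4.05 CPM, SD, n = 3, log2 fold change 0.73), Nop56 of the box C/D snoRNPs (155 ± 14.8 to 228 ± 39.7 CPM, 0.54) and Mdn1, a large ATPase of 60S assembly (579 ± 122 to 728 ± 132 CPM, 0.34). Their edgeR adjusted p with the block was 0.032, 0.0056 and 0.027. Ncl, nucleolin (0.22 ± 0.31, SE), and Fbl, the rRNA methyltransferase fibrillarin (0.07 ± 0.47), were not called.

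Of 23 tested genes of Myc and mTOR control, 18 lay above 0 with a median of 0.12, and 0 were called by edgeR without the block (1 higher and 1 lower at an unadjusted p under 0.05, beside 4.63% and 7.22% of all tested genes). With the block 2 were called higher and 1 lower, where 5.81% and 6.57% of all tested genes were, so these small counts lie near the background. The 2 were the Max partner Mxd1 (log2 fold change 0.73, edgeR adjusted p = 0.0021) and the mTORC1 subunit Rptor (0.54, 0.014), and the 1 was the Max partner Mxd3 (-2.68, 0.0051). Myc itself was at 82.3, 54.2 and 52.8 CPM in Mdr1- and 50.01, 84.8 and 61.3 CPM in Mdr1+ replicates 1, 2 and 3, with no common direction (0.06 ± 0.26, SE). Larp1 at 0.33 ± 0.17 and Mtor at 0.15 ± 0.18 (SE) were not called. Among 11 tested genes of ribosome surveillance and the p53 response, 0 were called with or without the block, 0 had an unadjusted p under 0.05 and the median was 0.01.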

How the data were processed

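Libraries were made with the TruSeq stranded total RNA kit, and build mm9 and the tools TopHat, HTSeq and DESeq2 come from the submitters' processing notes. For versions, strand setting and annotation the entry is: not given in the sources used here. The deposited values are raw counts per gene, per the file headers. HTSeq's rows for unassigned alignments (13.2 to 19.7% without a feature, 67.0 to 73.2% not unique, replicates 1 and 2) were left out of totals and tests.

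The values of both replicate 3 libraries were assigned to gene names sorted ignoring case, which moved 19002 of 23366 names (81.3%). Counts were tested with edgeR 4.0.16 in R 4.3.3 (TMM scaling, filterByExpr by group, robust quasi-likelihood F test, Benjamini-Hochberg over 10897 genes). The fit without the block was tested on simulated data, drawn with a common dispersion and no effect of the replicate number. The fit with the block was not tested in this way. SE is the log2 fold change divided by the root of F. CPM is TMM-scaled, pair ratios add 0.5 CPM and paralog ratios 0.5 counts. Alternatives were DESeq2 1.42.0 and its size factors, library totals, no filter, the block, left-out libraries and the deposited order. In a further setting, TMM factors came from genes outside the members and the proliferation genes.

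The labels number the replicates without saying what a number shares. Same-numbered libraries deviated together (correlation 0.409, 0.568 and 0.213 for pairs 1, 2 and 3, all over 0.1), so the numbers were taken as pairing them. Replicate libraries differed beyond counting noise.

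Shared sequence is the percent of 50-base stretches of 1 GENCODE M21 transcript per gene found in a transcript of another locus (94.4% of tested genes had one). These transcripts and the RefSeq promoters are on another build than the counts and were used by gene name alone. The genes and lists were chosen with earlier results of these data known. Named were genes called with or without the block, the 6 highest and 6 lowest estimates at an average log2 CPM of at least 2, the 5 with the highest mean CPM, and a set picked for their known roles. Some genes that this rule names are counted in the totals but not reported here.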

Additional observations from a re-analysis of the deposited data

How the results depend on the processing

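The median log2 fold change of the ribosomal protein genes stayed above 0 under each alternative run: 0.28 with DESeq2 size factors, 0.26 with DESeq2, 0.29 with TMM factors from other genes, 0.23 with library totals, 0.28 with no filter, 0.26 with the replicate block and 0.17 to 0.40 when libraries were left out. It was 0.14 with replicate 3 as deposited. There 81.3% of names stand at another row than their values, so that setting shows only what the re-ordering changed. The replicate block moved the calls from 0 to 2 higher and 1 lower, and leaving out a replicate number in that fit, chosen after seeing the data, gave 0 to 13 higher and 0 to 1 lower. With the block, calls in ribosome biogenesis went from 0 to 3 higher. In Myc and mTOR control they went from 0 to 2 higher and 1 lower. The block changed no other call on a list of genes around the ribosome. For the share and the ratios, pairing used a two-sided exact permutation test by sign flips of 3 pairs (smallest possible exact permutation p = 0.25). That test could make no call at the 0.05 threshold, so it cannot show whether a call on the share or a ratio depends on the block. Of 551 values for 29 named genes, 499 kept direction and side of the threshold, 12 passed it in addition and 40 changed sign. By setting, Rpl8 became -0.0024 with library totals, and with replicate 3 as deposited Rpl5 became -0.25, Rplp2 -0.039, Rps26 0.27 and Rps4x -0.15. With libraries left out and no block, estimates that changed sign ranged from -0.20 to 0.37 (Rpl13a), -0.11 to 0.24 (Rpl22), -0.43 to 0.44 (Rpl22l1), -0.070 to 0.23 (Rpl4), -0.66 to 0.0063 (Rpl41), -0.43 to 0.23 (Rpl7a), -0.12 to 0.22 (Rpl8), -0.22 to 0.11 (Rplp0), -0.040 to 0.51 (Rplp1), -0.34 to 0.060 (Rps26), -0.34 to 0.98 (Rps27), -0.011 to 0.30 (Rps3) and -0.075 to 0.36 (Rpsa). In the block fit, estimates that changed sign were Rpl11 -0.016, Rpl22 -0.089, Rpl22l1 -0.30 and Rpsa -0.031 without replicate 1, Rplp0 0.0060 and Rpsa -0.059 without replicate 2, and Rpl7a 0.027 without replicate 3. The difference in the Rpl22l1 to Rpl22 ratio, -0.05, became 0.040 with 5 counts added and ran from -0.24 to 0.19 with a replicate left out. The cause was not tested. A single count in the least deep library, Mdr1+ replicate 3, limits genes of low level.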
